A study of Caenorhabditis elegans with 2 samples.

Results

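The genes described here encode proteins of germline messenger ribonucleoprotein particles (mRNPs) in Caenorhabditis elegans. They are 8 named genes, cgh-1, car-1, ifet-1, larp-1, cey-1, cey-2, cey-3 and cey-4, taken by name from a list. They are 8 of the 19973 protein-coding genes on the 6 nuclear chromosomes. The assay was chromatin immunoprecipitation with sequencing (ChIP-seq) of the protein B0019.2, which asks where in the genome that protein lies. The worms were strain RW12288, in which genome editing fused B0019.2 to TY1, EGFP and 3xFLAG tags (st12288[B0019.2::TY1::EGFP::3xFLAG] I), and the tagged protein was precipitated with an anti-GFP antibody. The 2 biological replicates form 1 group of whole young adults at 63.5 h, from larvae starved at L1 after bleaching, and every worm used carried the tag. No untagged or input sample is analysed here, so no comparison between conditions and no test could be made. Whole worms mix germline and soma, so a peak cannot be assigned to either tissue.

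In the germline many messenger RNAs are made long before they are translated, and RNA-binding proteins hold them in stable, silent particles. DEAD-box helicases of the DDX6 family, with LSM14-type and 4E-T-type partners, repress translation and gather in P granules and related bodies. Y-box proteins, which carry a cold-shock domain, coat messenger RNA along its length. The data concern the DNA in front of the genes for these proteins, not the proteins or their RNA targets.

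The authors gave each peak a signal value, whose scale is not stated, and a summit, its highest point. A gene was called where a summit of the authors' conservative thresholded list of both libraries fell in its promoter window, from 1000 bp upstream to 200 bp downstream of its annotated start. By this rule 4 of the 8 genes were called: larp-1, ifet-1, cey-2 and car-1. The background was 7.39% of the 10361 protein-coding genes with any ranked candidate peak in the window, and all 8 genes have such a candidate. The other 4 genes, cgh-1, cey-1, cey-3 and cey-4, were not called. Each called gene had 1 conservative summit, upstream of its start, and 0 of the 8 had one in the gene body, where the background was 1.95%. Counted over window or body together, the share was again 4 of 8, against a background of 6.19%. All 4 called genes face a neighbouring gene that is transcribed the other way and shares the summit. The nearest upstream neighbour was transcribed the other way for 69.3% of all 766 called protein-coding genes. Of these 766, 70.1% shared a summit with another gene. With 8 genes picked by name, the counts for the 8 describe the list and say nothing of genes of this kind in general.

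The DNA at the summits is shown for larp-1 and ifet-1, which were called in both libraries, and for cgh-1 and cey-4, which were not called. Each run is 101 bases, the summit base and 50 bases on either side, 5′ to 3′ on the minus strand, on which all of these genes are transcribed. The letters are from the RefSeq genome of assembly WBcel235, the same build as ce11. Capitals mark the 5-letter word GCGCG, which reads as CGCGC on the opposite strand and was searched on both. The larp-1 window is chrIII:5018261-5018361, the ifet-1 window is chrIII:4475616-4475716, the cgh-1 window is chrIII:7498006-7498106 and the cey-4 window is chrIII:10868760-10868860. The cgh-1 and cey-4 windows are centred on the strongest candidate in the promoter window, which did not pass the authors' threshold.
larp-1: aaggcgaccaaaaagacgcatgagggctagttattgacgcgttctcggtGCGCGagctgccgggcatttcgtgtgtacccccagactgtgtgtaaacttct
ifet-1: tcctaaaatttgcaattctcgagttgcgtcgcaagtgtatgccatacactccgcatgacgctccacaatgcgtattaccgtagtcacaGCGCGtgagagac
cgh-1: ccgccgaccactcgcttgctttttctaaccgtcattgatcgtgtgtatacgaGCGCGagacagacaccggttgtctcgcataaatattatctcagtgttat
cey-4: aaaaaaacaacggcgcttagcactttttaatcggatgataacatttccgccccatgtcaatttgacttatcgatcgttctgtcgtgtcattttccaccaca

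In larp-1 the word lies on the summit itself, with its bases at -1 to 3 bp from it in the direction of the gene. In ifet-1 it lies at 38 to 42 bp, near the end of the run. In cgh-1, which was not called, it lies at 2 to 6 bp from the summit of the candidate. The cey-4 run holds no copy.

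The conservative list holds 900 peaks with a median signal value of 95.7 (quartiles 77.2 and 131) and a maximum of 697. The list of replicate 1 holds 524 peaks and that of replicate 2 holds 496. Each was thresholded by the authors from a longer ranked list of candidates, with 55591 candidates for both libraries, 45502 for replicate 1 and 38525 for replicate 2. The files hold no read counts, so the depth of each library is unknown. Signal values and ranks are therefore compared only within a list.

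The gene larp-1 encodes a La-related protein, a family that binds messenger RNA and controls its stability and translation. It spans III 5008925 to 5017650 on the minus strand (WBGene00020097). Its peak, III 5018283 to 5018391, had a signal value of 204 in the conservative list, which placed it at rank 78 of 900. In the single-library lists the value was 103 in replicate 1, rank 88 of 524, and 99.6 in replicate 2, rank 77 of 496. It stood high in all 3 lists and was the strongest peak of the 8 genes in each. The summit was 661 bp upstream of the gene start, and the summits of the libraries were 33 bp apart. Directly above it in the conservative list stood a peak of 207 whose nearest gene was T13F2.6, with sna-2 in the same window, and directly below it a peak of 202 whose nearest gene was K05C4.4.

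The gene ifet-1 encodes a 4E-T family protein, which binds the cap-binding factor eIF4E and represses translation. It spans III 4471411 to 4475150 on the minus strand (WBGene00004132). Its peak, III 4475531 to 4475800, had a signal value of 137 in the conservative list, rank 211 of 900. The value was 76.1 in replicate 1, rank 183 of 524, and 60.3 in replicate 2, rank 256 of 496. Both libraries kept it in their thresholded lists, with summits 51 bp apart. The conservative summit was 516 bp upstream of the gene start.

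The gene car-1 encodes an LSM14 family protein, a partner of the helicase CGH-1 in germline particles. It spans I 12904470 to 12906040 on the plus strand (WBGene00012484). Its peak, I 12903535 to 12903804, had a signal value of 91.5 in the conservative list, rank 495 of 900, with its summit 800 bp upstream. The value was 46.6 in replicate 1, rank 490 of 524. In replicate 2 a candidate of 48.2 lay there, but its IDR was 0.153 and it was not in that library's thresholded list. Thresholded peaks had an irreproducible discovery rate (IDR), a measure of how poorly peak ranks repeat, of at most 0.01. The car-1 peak thus passed in replicate 1 and in both libraries together, and not in replicate 2 alone.

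The gene cey-2 encodes a Y-box protein, and it was the called member among the 4 cey genes. It spans I 5619569 to 5620669 on the plus strand (WBGene00000473). Its peak, I 5619175 to 5619444, had a signal value of 93.3 in the conservative list, rank 475 of 900, with its summit 259 bp upstream. In replicate 1 a candidate of 50.8 lay there with an IDR of 0.0990, so it was not in that library's list. In replicate 2 the value was 45.2, rank 436 of 496, and the peak was in the list. The cey-2 peak passed in the library where car-1 did not. In each library the candidate that failed had the higher signal value of this pair. The values were 50.8 for cey-2 and 46.6 for car-1 in replicate 1. In replicate 2 they were 48.2 for car-1 and 45.2 for cey-2.

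**Figure D1:**
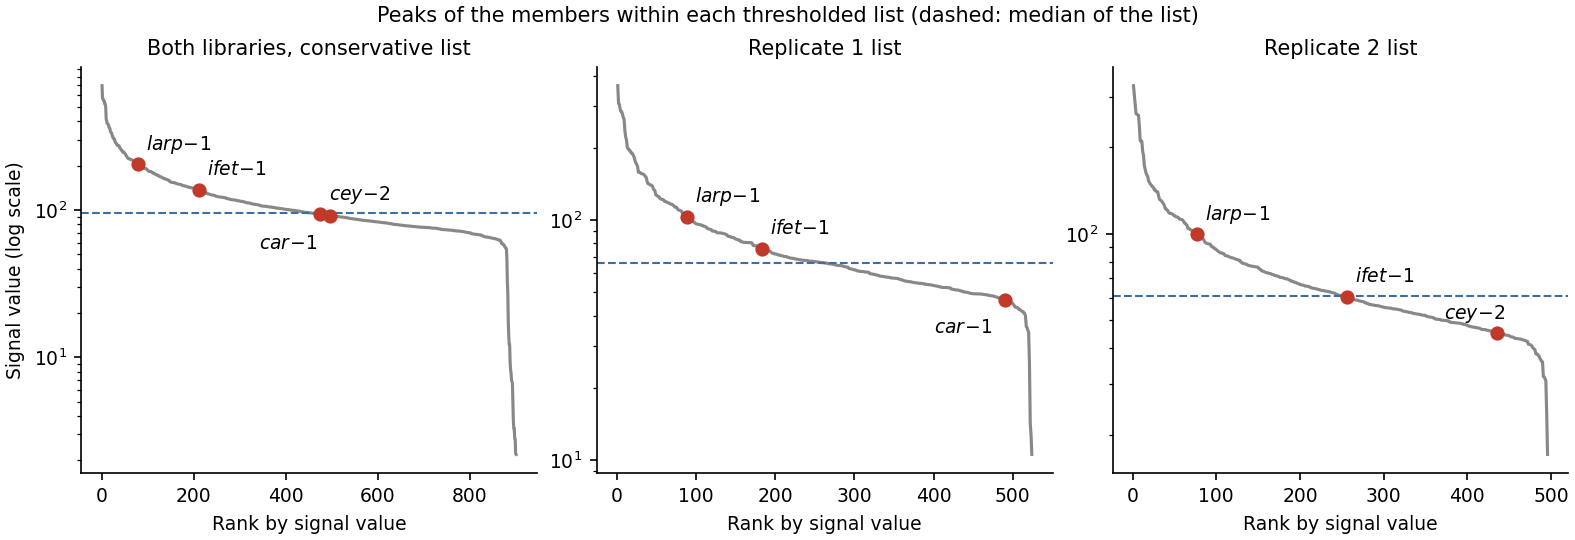
Signal value on a log axis against rank for the thresholded lists of both libraries, replicate 1 and replicate 2, 1 panel each, with the peaks of the called genes marked and the median of each list dashed. The larp-1 and ifet-1 peaks appear in all 3 lists, while car-1 appears in that of replicate 1 and cey-2 in that of replicate 2.

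In the list of replicate 1, 3 of the 8 genes were called (larp-1, ifet-1 and car-1), against a background of 5.00%. In the list of replicate 2, 3 of the 8 were called (larp-1, ifet-1 and cey-2), against a background of 4.68%. Both single-library lists called 2 of the 8, larp-1 and ifet-1, against a background of 3.51%. The conservative list was also divided by rank, and whether rank accounts for these calls was not tested. Among all peaks at ranks 1 to 225, which take in larp-1 and ifet-1, 97.3% were matched in both single-library lists. Among peaks at ranks 451 to 675, which take in cey-2 and car-1, 6.67% were matched in both, 44.9% in 1 and 48.4% in neither. A match was a summit within 135 bp. At the 4 called genes the summits of the libraries were 33 bp to 83 bp apart, against a median of 21 bp over all 900 peaks (quartiles 8 and 45).

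Every called gene shared its summit with a divergent neighbour, so the peak cannot be assigned to either gene from these lists. At larp-1 the neighbour was wip-1, which encodes a WASP-interacting protein homologue, III 5018639 to 5021120 on the plus strand. The starts of larp-1 and wip-1 are 989 bp apart, and the summit lay 661 bp from larp-1 and 328 bp from wip-1. At ifet-1 the neighbour was rps-1, which encodes a protein of the small ribosomal subunit, III 4475918 to 4476876 on the plus strand. The starts of ifet-1 and rps-1 are 768 bp apart, and the summit lay 516 bp from ifet-1 and 252 bp from rps-1. That summit also lay in the body of the non-coding gene F56F3.10 and 9 bp from the start of the non-coding gene F56F3.11. In both pairs the summit was nearer to the neighbour than to the mRNP gene.

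At car-1 the neighbour was coa-5, named for cytochrome c oxidase assembly, I 12903159 to 12903449 on the minus strand. The starts of car-1 and coa-5 are 1021 bp apart, and the summit lay 800 bp from car-1 and 221 bp from coa-5. At cey-2 the neighbour was xrep-4, which encodes an F-box protein, I 5616598 to 5618551 on the minus strand. The starts of cey-2 and xrep-4 are 1018 bp apart, and the summit lay 259 bp from cey-2 and 759 bp from xrep-4. Of the 4 called genes, cey-2 was the one whose own start was the nearest to the summit.

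**Figure D2:**
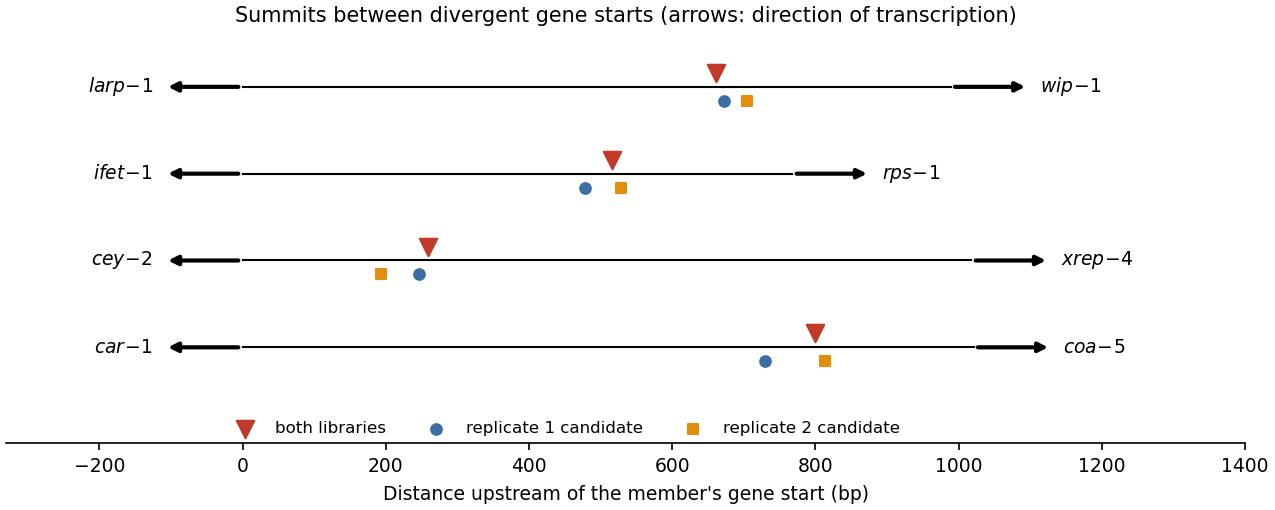
Distance in bp from the start of each called gene to its summits in the conservative list and in each library's candidates, and to the start of the divergent neighbour, drawn to scale with 1 row per gene. The summits of larp-1, ifet-1 and car-1 lie on the neighbour's side of the interval, and that of cey-2 lies on its own side.

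Over all 766 called protein-coding genes, 434 (56.7%) were the nearest start to a summit in their window, and 537 (70.1%) shared a summit with another gene. Among the mRNP genes the counts were 1 of 4 and 4 of 4. A divergent upstream neighbour was found for 4 of the 4 called mRNP genes and 531 (69.3%) of all called genes. It was found for 2 of the 4 uncalled mRNP genes, cey-3 and cey-4. Among the 9594 uncalled genes with a window candidate and an upstream protein-coding neighbour, it was found for 45.6%. The cey-3 start is 265 bp from that of rmh-1, which encodes an RMI1 homologue, and the cey-4 start is 490 bp from that of vps-50, an endosomal recycling gene. The upstream neighbours of cgh-1 and cey-1 lie on the same strand as those genes.

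The call depends on how far from the start a summit may lie and on the single-gene assignment. With a window of 500 bp upstream to 100 bp downstream, 1 of the 8 genes was called, cey-2, against a background of 8.95%. With each summit given to its nearest gene start, 1 of the 8 was called, again cey-2, against a background of 4.19%.

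The 4 uncalled genes had candidates in their windows, and none passed the threshold. The gene cgh-1 encodes the DDX6 family helicase and spans III 7495320 to 7497832 on the minus strand (WBGene00000479). Its strongest window candidate had a signal value of 37.6 at 224 bp upstream, with an IDR of 0.720. Replicate 1 had no candidate in the window, and replicate 2 had a strongest candidate of 14.7. Thus the helicase gene was uncalled in every list. Its partner genes car-1 and ifet-1 were called, each on a summit nearer to the start of its divergent neighbour.

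Among the Y-box genes, cey-1 spans II 11039348 to 11041206 on the minus strand (WBGene00000472). Its strongest window candidate had a signal value of 33.9 at 928 bp upstream, with an IDR of 0.787. The gene cey-3 spans I 5571796 to 5572949 on the minus strand (WBGene00000474), and its strongest candidate had 39.0 at 113 bp upstream, with an IDR of 0.528, in a window shared with rmh-1. The gene cey-4 spans III 10866946 to 10868703 on the minus strand (WBGene00000475), and its strongest candidate had 22.9 at 107 bp upstream, with an IDR of 0.757, shared with vps-50. Of the 4 Y-box genes, cey-2 alone reached the threshold, and cey-4 was the lowest.

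**Figure D3:**
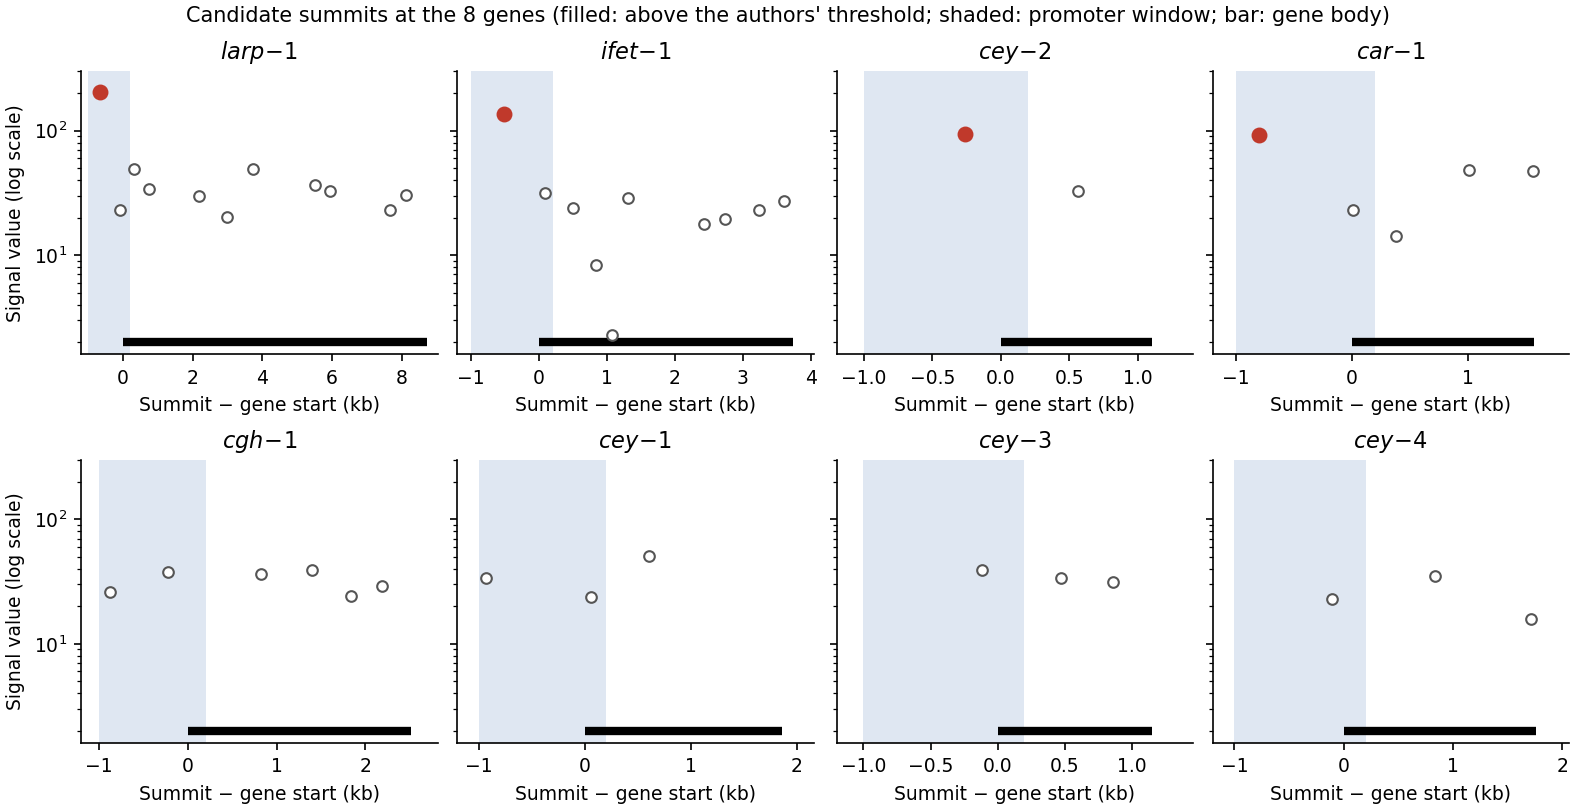
Signal value on a log axis against distance in kb from the gene start for each candidate in the window (shaded) or body (black bar) of the 8 genes, from the ranked list of both libraries, 1 panel per gene, with peaks past the authors' threshold filled. The passing peaks of larp-1, ifet-1, cey-2 and car-1 have values of 204, 137, 93.3 and 91.5, above every other candidate shown, of which the highest is 50.4 in the body of cey-1.

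Over the 10361 genes the strongest window candidate had a median signal value of 32.9 (quartiles 25.7 and 42.8). The value of larp-1 exceeded that of 99.2% of these genes in the list of both libraries. Shares in each replicate are over the genes with a window candidate there, 9685 in replicate 1 and 8789 in replicate 2. For larp-1 they were 99.1% in replicate 1 and 99.0% in replicate 2. For ifet-1 the shares were 97.6%, 97.9% and 96.7% in the same order of lists. For cey-2 they were 95.0%, 94.8% and 94.1%, and for car-1 94.9%, 94.0% and 94.8%. These positions follow in part from the call itself, since the threshold selects peaks of high and repeatable rank.

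Among the uncalled genes, the value of cey-3 exceeded that of 67.0% of genes in the list of both libraries, 39.2% in replicate 1 and 77.2% in replicate 2. For cgh-1 the share was 63.7% in both libraries and 22.7% in replicate 2, for cey-1 it was 52.9% and 69.8%, and for cey-4 it was 16.1% and 57.5%. These 3 genes had no window candidate in replicate 1. Among the uncalled genes, cey-3 was thus the one with a window candidate in each library. Its strongest candidate had an IDR of 0.719 in replicate 1 and 0.895 in replicate 2. The shares hold within each list and are not compared between libraries.

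**Figure D4:**
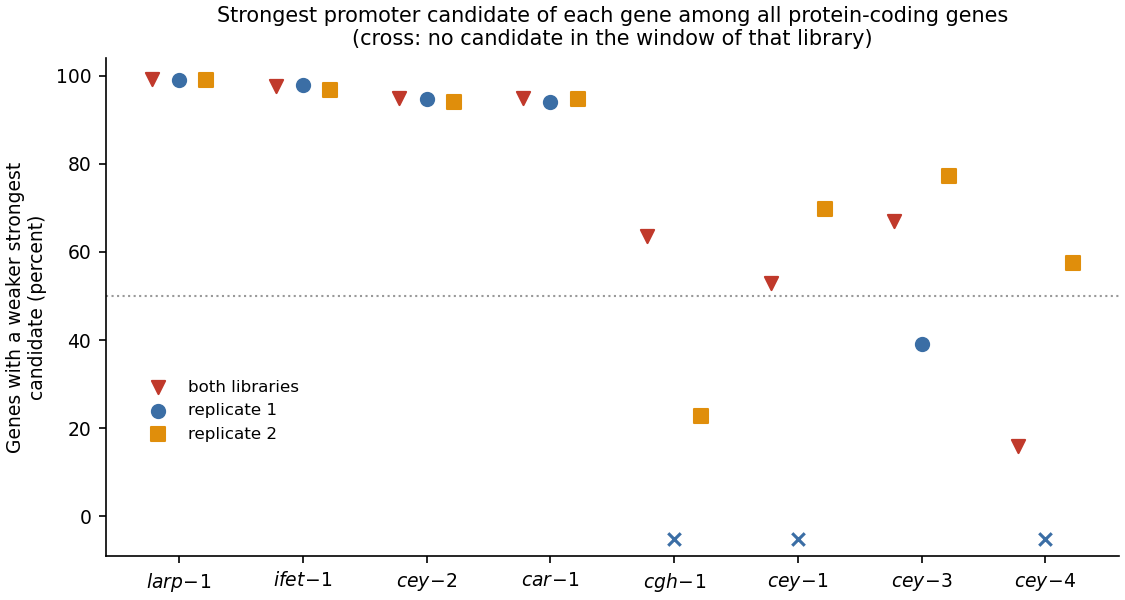
Percent of genes with a window candidate whose strongest candidate has a lower signal value than that of the named gene, for the list of both libraries, replicate 1 and replicate 2, with a cross where a library had no candidate in the window. The 4 called genes lie between 94.0% and 99.2% in every list, and the 4 uncalled genes lie between 16.1% and 77.2% where they have a candidate.

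In all, 43 candidates lay in the window or body of the 8 genes, and 39 of them did not pass. Their signal values were 2.27 to 50.4 with a median of 29.9, against a median of 27.9 over all candidates. Taking the strongest candidate downstream of the start in each gene, the 3 highest values were 50.4 in cey-1 at 607 bp, 49.5 in larp-1 at 3732 bp and 48.0 in car-1 at 1008 bp. The highest -log10 IDR of the 39 was 1.01, where a thresholded peak needed 2.

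The word GCGCG was found within 50 bp of the summit in 3 of the 4 called genes, larp-1, ifet-1 and cey-2, and not in car-1. It was chosen for display among 6 words searched, after the values were seen, so its presence is a description and not a site. It was present in 327 of the 900 conservative peaks (36.3%), against 6.03% of the 54691 other candidates and 4.28% of the windows 300 bp to either side of the peaks. Restricted to summits in protein-coding promoter windows, the shares were 45.3% of 548 conservative peaks and 7.82% of 12431 other candidates. The share was 52.9% at ranks 1 to 225, 39.6% at ranks 226 to 450, 27.1% at ranks 451 to 675 and 25.8% at ranks 676 to 900. The strongest candidates of cey-1, cey-3 and cey-4 held no copy, and that of cgh-1 held 1 although it was not called.

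The other 5 words were each searched on both strands too. GAGAG was present in 23.6% of the conservative peaks and 15.8% of the other candidates, and TTTCAG in 7.78% and 17.3%. TATAAA was present in 5.33% and 7.58%, CGGAG in 15.3% and 12.3%, and TGTCTC in 54 of 900 conservative peaks and 4.54% of the other candidates. The ifet-1 window holds GAGAG and CGGAG, the car-1 window holds CGGAG, and those of cgh-1 and cey-1 hold TGTCTC. The 101 bp windows of larp-1, ifet-1, cey-2 and car-1 had a GC content of 54.5%, 49.5%, 47.5% and 42.6%. The median was 47.5% over all conservative peaks and 40.6% over the other candidates. Among the uncalled genes GC content was 50.5% at cey-3, 47.5% at cgh-1, and 40.6% at both cey-1 and cey-4. The part of base composition in the shares of GCGCG was not tested.

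Further genes of messenger RNA decapping, deadenylation, cap and poly(A) binding and RNA granules were listed by name, and 44 of 45 matched the annotation. Of the 39 with a window candidate, 5 were called (12.8%), beside the background of 7.39%. They were atx-2, ntl-11, nhl-2, sqd-1 and lsm-7, and 34 were not called. The gene atx-2, for the RNA-binding protein ataxin-2, had 2 conservative summits in its window, and the stronger had a signal value of 145 at 635 bp upstream, rank 180 of 900, shared with ecps-1. The gene ntl-11, for a CCR4-NOT deadenylase subunit, had 122 at 121 bp, rank 260. The gene nhl-2, for a TRIM-NHL protein of RNA granules, had 121 at 862 bp, rank 265, shared with F26F4.14 and tag-340.

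These 3 genes were called in both single-library lists. The gene sqd-1, for an RNA-binding protein, had 101 at 324 bp, rank 403, and was called in replicate 1. The gene lsm-7, for an Sm-like ring protein, had 64.3 at 233 bp, rank 849, shared with dnc-1, and was in neither single-library list. For ntl-11 and sqd-1 the gene's own start was the nearest to the summit. The decapping genes dcap-1 and edc-3, the P body gene patr-1 and the exonuclease gene xrn-1 had candidates and no conservative summit. Of the conservative peaks at the 8 mRNP genes and these listed genes, that shared by larp-1 and wip-1 had the highest signal value.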

How the data were processed

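Peak lists from 2 ChIP-seq libraries of 1 group were analysed. The signal value of each peak and the −log10 of the global IDR are the authors' deposited values, on assembly ce11 per the labels. For aligner and peak caller the entry is "not given in the sources used here". Unused were the 16 value columns per input in the ranked lists of both libraries, which no label ties to a sample. Chromatin was sonicated, per the labels. The lists used hold no read counts, so depth is unknown.

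Gene models were those of Ensembl release 115 for WBcel235 (ce11). Each summit counted for all genes that held it in their promoter window (from 1000 bp before the start to 200 bp after it) or body. The main list was the conservative list of 900 peaks, whose members were all found in the ranked list with −log10 IDR of at least 2. The background was all protein-coding genes with a ranked candidate in the same region. No test was run, because 1 group has nothing to be compared with. Window, threshold, list, annotation and assignment were varied, and each library was left out. The assignment was tested on made-up genes.

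The members and lists were chosen with earlier results of these data known. The genes named are the 8, those sharing their summits, the neighbours in rank of larp-1, and companion genes with a conservative summit. The companions without one, rmh-1 and vps-50 were named after their values were seen. The scripts ran under Python 3.11.15 with pandas 2.3.3 and numpy 2.4.6, and figures were drawn with matplotlib 3.10.9.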

Additional observations from a re-analysis of the deposited data

How the results depend on the processing

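Of the 8 genes, 4 were called in the promoter window, 4 in window or body and 1 was nearest to its summit. The background was 7.39% for the promoter window and 6.19% for window or body. The backgrounds that follow are for the promoter window count alone. With the peaks at or above the median signal value the counts were 2, 2 and 0 and the background 4.74%. With a window of 500 bp and 100 bp, 1 gene was called in the window and 1 in window or body, and the background was 8.95%. With each summit given to its nearest start, both counts were 1 and the background was 4.19%. Over all annotated protein-coding genes the background was 3.84%. With either library left out, 3 genes were called in the window and 3 in window or body, 0 to 1 were nearest, and the background was 4.68% to 5.00%. Without replicate 1, which leaves the list of replicate 2, car-1 was lost, and without replicate 2, cey-2 was lost. Counts stayed at 4, 4 and 1 with the other deposited list of both libraries and a window of 2000 bp and 500 bp. They also stayed so with any transcript start and any base of the peak. In this order of settings the backgrounds were 7.3%, 6.83%, 7.35% and 6.95%. For single genes, 62 of the counts under alternatives were unchanged and 10 went to 0. The unchanged counts include those of cgh-1, cey-1, cey-3 and cey-4, which were 0 under every setting. All 10 that went to 0 were at the 4 called genes. No paired analysis was possible because there is 1 group. Lists without read counts do not show whether an uncalled gene lacked binding or lacked depth.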

Other observations

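Peaks of the conservative list other than those above lay 1154 bp to 45927 bp from the starts of the 8 genes. The nearest was a peak of signal value 68.1, rank 816 of 900, with its summit 1154 bp downstream of the cey-2 start, in the window of F46F11.7. That peak, I 5620588 to 5620857, overlapped the end of cey-2 at 5620669, and its summit lay past that end. Next to cey-3, the nearest such peak was one of 64.1, rank 851, 4028 bp upstream of its start, whose nearest gene was klp-15, a kinesin. Near ifet-1 a peak of 97.3, rank 436, lay 4211 bp downstream of the gene start, in the window of a transfer RNA gene. The nearest conservative peak to cgh-1 was 22994 bp from its start, with a signal value of 97.4 and cux-7 as its nearest gene.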
